A study of Mus musculus with 18 samples.

Results

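The cytosolic ribosomal protein genes encode the protein part of the ribosome that translates nuclear-encoded mRNA. They were picked by gene symbol alone, taking each symbol of the form Rpl or Rps with its standard number or letter and the expressed paralogs Rpl22l1, Rpl36al, Rpl7l1 and Rps27l, a rule that reads no measured value, although the set was proposed with earlier results of these data known. The rule gave 81 of the 55487 genes in the count table, 49 of the large 60S subunit and 32 of the small 40S subunit. RNA was taken from whole livers of male C57BL/6J mice, bought at 7 weeks of age, after 16 weeks on a diet and a 4 h fast, each mouse giving 1 library and each of 3 groups holding 6 mice. All mice had been injected, 1 week before the diet began, with an adeno-associated virus (AAV8) whose thyroxine-binding globulin promoter is active in hepatocytes. The CON-GFP group carried the GFP virus and ate a purified control diet. The FPC-GFP group carried the same virus and ate the FPC diet, a Western-type diet with fructose, palmitate and cholesterol, given with sugar in the drinking water. The FPC-LIPA group ate the FPC diet and carried human LIPA, the gene of lysosomal acid lipase (LAL), which frees fatty acids and cholesterol from esters inside lysosomes. FPC-GFP against CON-GFP asks what the diet did, and FPC-LIPA against FPC-GFP asks what LAL overexpression did on that diet. Livers with LIPA on the control diet were not analysed here, so no effect of LIPA outside the FPC diet can be given.

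A cytosolic ribosome has 1 copy of nearly every one of these proteins, and the cell therefore makes them in matched amounts. Their mRNAs are short, very abundant and stable, and most begin with a run of pyrimidines called a 5′ terminal oligopyrimidine (TOP) tract, through which the kinase complex mTORC1 and the protein LARP1 set their translation and storage. Hepatocytes depend on this machinery to make albumin, clotting factors and apolipoproteins, and dividing or activated leukocytes also carry much ribosomal protein mRNA.

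Each library held between 16632146 and 37739301 counts assigned to genes. All 8 hepatocyte markers, such as albumin (Alb), were expressed in each group, and their summed level, as CPM (counts scaled to a common library total, with TMM factors), was 67154 to 99310 for CON-GFP, 61378 to 85599 for FPC-GFP and 50040 to 75001 for FPC-LIPA. The 16 leukocyte markers summed to 110 to 227, 282 to 569 and 618 to 1206 CPM in the same order of groups, with no overlap between the groups. None of the 16 was at 0 in a whole group, and the pan-leukocyte gene Ptprc averaged 6.26, 8.86 and 28.2 CPM in the 3 groups. The share of counts on mitochondrially encoded genes was 4.95 to 11.7%, 3.41 to 5.25% and 1.87 to 5.92% in the same order. Within FPC-LIPA this share was 4.91, 5.92 and 5.15% in mice 31, 33 and 34. In mice 36, 37 and 39 it was 3.18, 3.31 and 1.87%. The table held no row for the human transgene. Mouse Lipa, at 240 to 406 CPM in FPC-GFP and 254 to 385 CPM in FPC-LIPA, does not check it. In bulk tissue, fewer cells of a type and less RNA per cell cannot be told apart.

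The ribosomal protein genes took the smallest share of the transcriptome in FPC-GFP livers and the largest in FPC-LIPA livers. In CON-GFP they held 1.75 to 2.54% of a library's counts (median 1.95%), in FPC-GFP 1.44 to 1.80% (median 1.68%) and in FPC-LIPA 2.16 to 8.15% (median 4.71%). The FPC-LIPA values were 2.95% for mouse 31, 2.42% for mouse 33, 2.16% for mouse 34, 6.48% for mouse 36, 8.09% for mouse 37 and 8.15% for mouse 39. All of them lay above every FPC-GFP library, and mice 33 and 34 lay within the CON-GFP range. The libraries of the FPC-LIPA group thus differed widely among themselves, which the plot of shares by library shows.

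**Figure D1:**
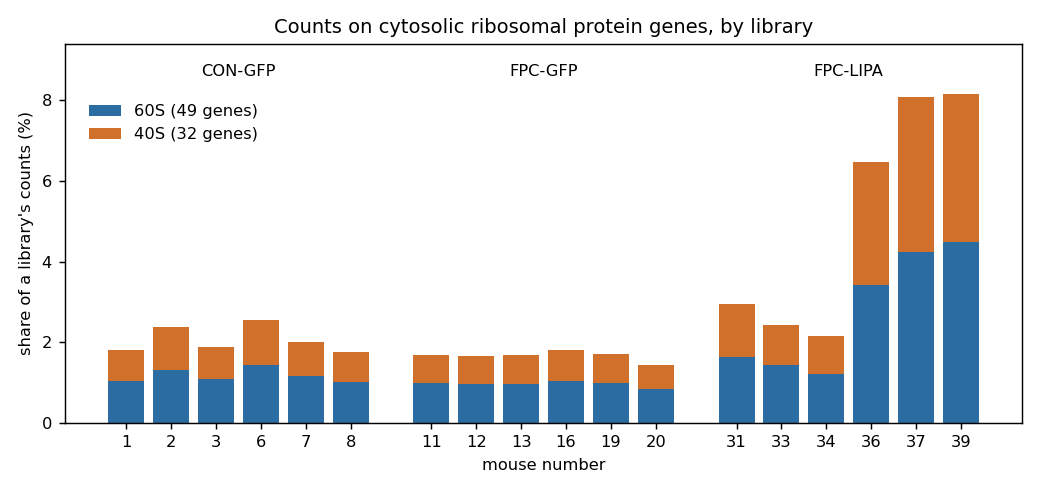
Share of each library's assigned counts (%) that fell on the 49 genes of the 60S subunit (lower bar segment) and the 32 genes of the 40S subunit (upper segment), with 1 bar per mouse. FPC-LIPA livers ran from 2.16 to 8.15%, and the FPC-GFP livers stayed between 1.44 and 1.80%.

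The subunits did not move by the same amount. The ratio of 60S to 40S counts was 1.24 to 1.35 in CON-GFP, 1.36 to 1.41 in FPC-GFP and 1.10 to 1.45 in FPC-LIPA. The value of 1.45 came from mouse 33, where Rpl41 alone stood far above the other members. With all members, mouse 33 lay above the FPC-GFP range and the other FPC-LIPA mice lay below it. With Rpl41 left out, the ratio was 1.17 to 1.28 in CON-GFP, 1.29 to 1.34 in FPC-GFP and 0.921 to 1.23 in FPC-LIPA. Every FPC-LIPA library then lay below every FPC-GFP library. Rpl41 is a 60S gene and the member with the largest rise with LIPA, so leaving it out lowers the FPC-LIPA ratios most. That full separation of the groups thus rests on the choice of Rpl41. These ratios are descriptions of the libraries and carry no test.

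All 81 members passed the filter on low counts in each comparison. In FPC-LIPA against FPC-GFP every member had a fitted log2 fold change above 0, compared with 52.3% of the 14620 genes tested. With edgeR's quasi-likelihood test, 66 members rose at an adjusted p under 0.05, where 14.4% of all genes did so. At a fold change of 2 or more, the added threshold for a differentially expressed (DE) gene, 58 members were higher, 34 of 49 in the 60S and 24 of 32 in the 40S subunit, against 10.3% of all genes. In 45 members all 6 FPC-LIPA livers lay above all 6 FPC-GFP livers, which 3.81% of all genes also showed. The median log2 fold change was 1.39 over the 60S genes, 2.03 over the 40S genes and 0.04 over all genes tested, and the members ranged from 0.16 for Rpl36al to 3.42 for Rpl41.

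These counts leaned on which libraries were compared. Sample sheet numbers in the labels ran from 55 to 68 for 14 libraries, while CON-GFP mice 1 and 2, FPC-GFP mouse 20 and FPC-LIPA mouse 37 had other numbers, 73, 80 and 79 for the first 3 and one far above all others for mouse 37. That library is titled 37b in the labels and 37 in the count table, and was matched as the single library with that number. Without it, 54 members were DE and higher with LIPA in place of 58, and 846 of 14824 genes tested were. Among libraries numbered 55 to 68 alone, 3 members were DE (Rpl41, Rpl39 and Rps14, each at an edgeR adjusted p of 0.0483). All 81 stayed above 0, with medians of 1.18 for the 60S and 1.68 for the 40S genes. Calls fell over the whole table in that setting, to 93 of 14736 genes DE and higher from 1508 of 14620 in the main fit. Removing each library's trend of counts on mRNA length left 38 members DE and higher, among 1083 of the 14620 genes tested. This removal lowered the 40S median to 1.13.

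**Figure D2:**
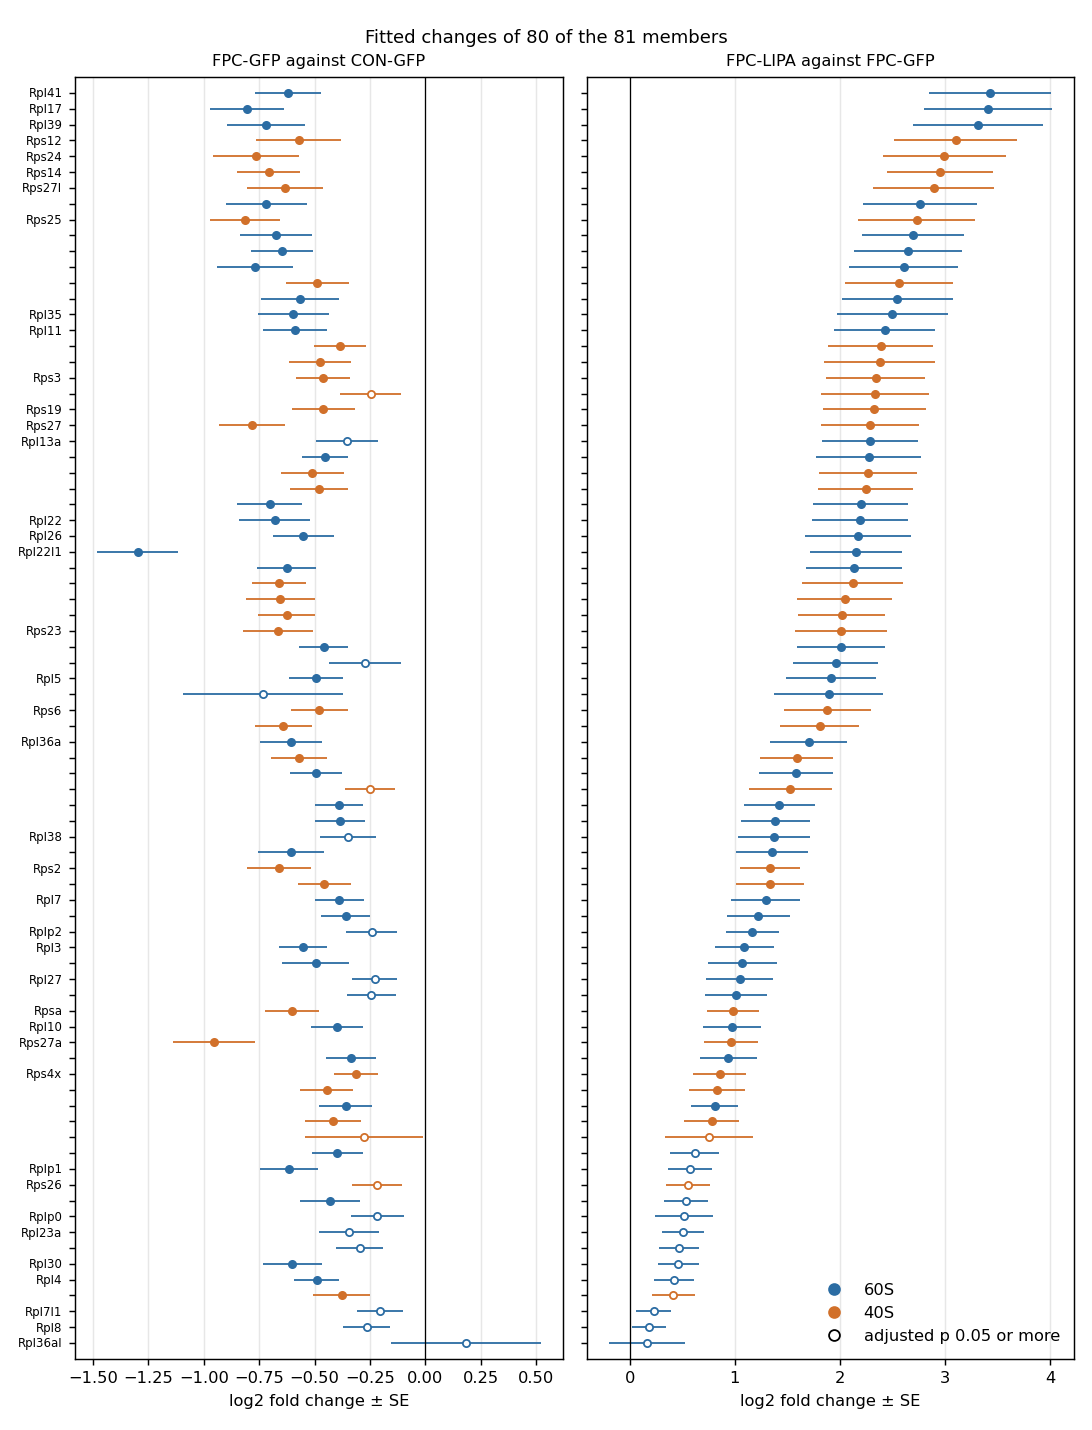
Fitted log2 fold change ± SE (x axis, a separate scale in each panel) of 80 of the 81 members (y axis, ordered by the right panel, with names for the genes chosen by rule), for FPC-GFP against CON-GFP and for FPC-LIPA against FPC-GFP, with 6 libraries per group. Filled points had an edgeR adjusted p under 0.05. All members drawn but Rpl36al sit below 0 in the left panel and all 80 sit above 0 in the right panel, where the order runs smoothly from 0.16 to 3.42.

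The highest member by fold was Rpl41, which codes for a tiny basic peptide at the interface between the subunits. In GENCODE M21 (GRCm38) the gene spans chr10:128548114-128549305 on the minus strand. Its coding sequence of 25 codons is printed here with that of Rpl39, which has 51 codons and codes for a protein lining the exit tunnel (chrX:37082520-37085402, minus strand), because these very short reading frames stood among the 3 genes with the steepest change. Capitals mark the start and stop codons.
Rpl41: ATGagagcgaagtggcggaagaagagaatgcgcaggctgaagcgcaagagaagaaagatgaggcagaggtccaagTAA
Rpl39: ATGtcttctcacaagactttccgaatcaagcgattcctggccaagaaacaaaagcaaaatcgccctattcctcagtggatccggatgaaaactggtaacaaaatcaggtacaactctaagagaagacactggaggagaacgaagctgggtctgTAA

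Rpl41 stood at 321 CPM in the lowest, 452 CPM in the median and 496 CPM in the highest FPC-GFP liver. In FPC-LIPA it stood at 722, 3446 and 10156 CPM. All FPC-LIPA livers were above all FPC-GFP livers, and the log2 fold change was 3.42 ± 0.58 (SE, n = 6 per group, edgeR adjusted p = 0.00954). Among the single livers, mice 31 and 34 held 975 and 722 CPM and mouse 33 held 1913 CPM. Mice 36, 37 and 39 held 4980, 8941 and 10156 CPM.

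Further members sit around the tunnel through which the new protein leaves the 60S subunit. Rpl17, whose long loop helps to form the narrow part of the tunnel, was at 207 to 262 CPM (median 238) in FPC-GFP and at 403 to 5585 CPM (median 1750) in FPC-LIPA, a log2 fold change of 3.41 ± 0.61 (edgeR adjusted p = 0.0103). Rpl39 was at 86.7 to 108 CPM (median 92.0) and at 135 to 2918 CPM (median 635), with a log2 fold change of 3.32 ± 0.62 (edgeR adjusted p = 0.011). Neither gene's groups overlapped. Rpl35 and Rpl26, both at the tunnel's outer rim, rose by log2 fold changes of 2.50 ± 0.53 (edgeR adjusted p = 0.0139) and 2.17 ± 0.50 (0.0167). Their neighbour Rpl23a, a docking point for the signal recognition particle, was at 143 to 209 CPM in FPC-GFP and 178 to 357 CPM in FPC-LIPA. The Rpl23a groups overlapped, and its difference did not pass the test (log2 fold change 0.51 ± 0.20, edgeR adjusted p = 0.0782).

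**Figure D3:**
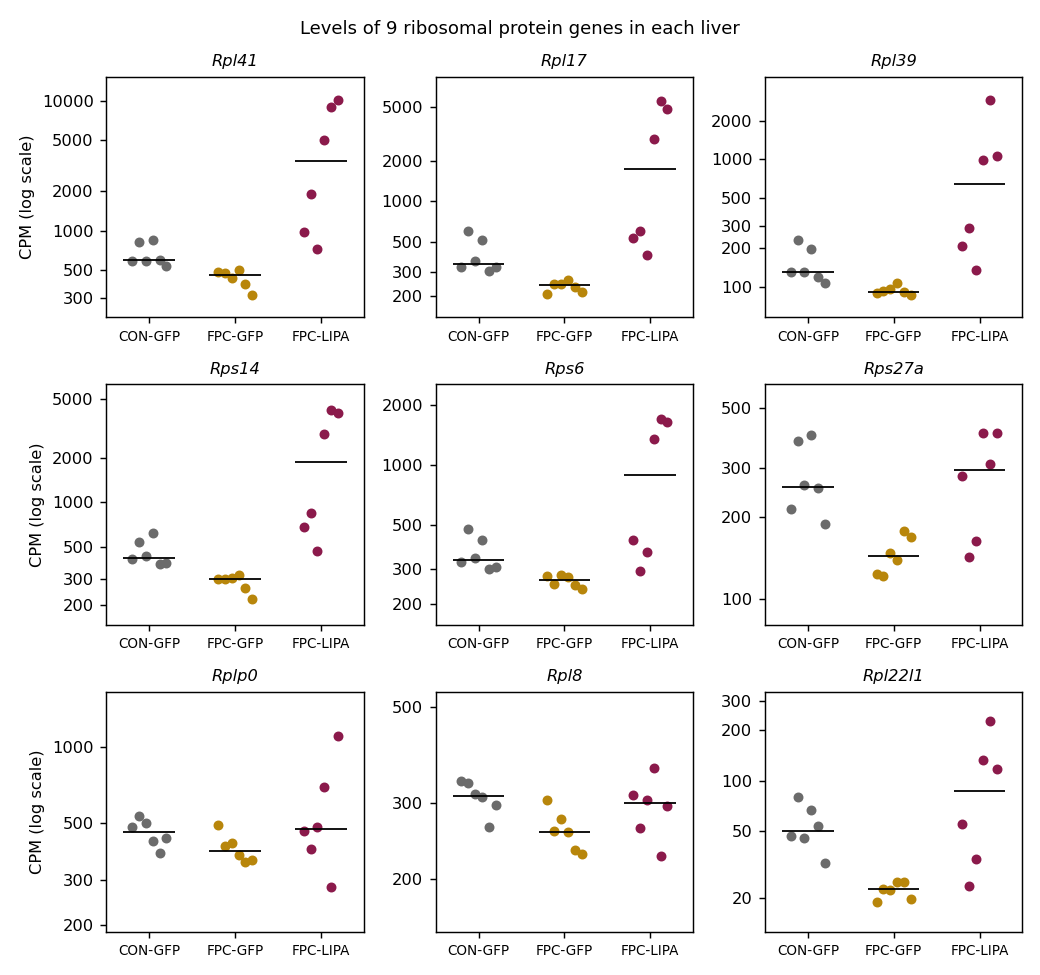
Level (CPM, log scale, a separate range in each panel) of 9 members in each liver, with 1 point per mouse and a line at the group median. Rpl41, Rpl17, Rpl39, Rps14 and Rps6 have no FPC-LIPA liver within the FPC-GFP range, whereas the groups overlap for Rplp0, Rpl8, Rps27a and Rpl22l1.

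The stalk of the 60S subunit, which recruits the elongation factors, was split. Its base Rplp0 stood at 352, 391 and 492 CPM in the lowest, median and highest FPC-GFP liver and at 281, 475 and 1097 CPM in FPC-LIPA. The lowest FPC-LIPA value belonged to mouse 37 and the highest to mouse 39, so the pair of livers with the largest member shares lay at opposite ends for this gene. The Rplp0 difference did not pass the test (log2 fold change 0.51 ± 0.28, edgeR adjusted p = 0.175). Of the acidic proteins bound to it, Rplp2 rose from 83.6 to 117 CPM in FPC-GFP to 134 to 332 CPM in FPC-LIPA without overlap (log2 fold change 1.17 ± 0.26, edgeR adjusted p = 0.0144). Rplp1, at 275 to 448 CPM and 405 to 735 CPM, had a log2 fold change of 0.57 ± 0.21 that did not pass (edgeR adjusted p = 0.0583).

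Rpl5 and Rpl11 bind 5S rRNA together and, when free, restrain the p53 ligase Mdm2. Both rose without overlap, Rpl11 by a log2 fold change of 2.43 ± 0.48 (248 to 291 CPM against 340 to 3033 CPM, edgeR adjusted p = 0.0118) and Rpl5 by 1.91 ± 0.43 (292 to 324 CPM against 373 to 2742 CPM, edgeR adjusted p = 0.0152). Rpl3, Rpl4, Rpl8 and Rpl10 lie at or near the peptidyl transferase centre. Rpl3 had a log2 fold change of 1.09 ± 0.28 (edgeR adjusted p = 0.0214), and Rpl10, the last protein to join the subunit, had one of 0.97 ± 0.27 (0.027). Rpl4, whose loop reaches into the tunnel, was at 484 to 547 CPM in FPC-GFP and 504 to 987 CPM in FPC-LIPA and did not pass (0.42 ± 0.19, edgeR adjusted p = 0.113). Rpl8 had the next to smallest fitted change of all members, at 227.8, 257 and 304 CPM in FPC-GFP and 226, 299 and 361 CPM in FPC-LIPA (0.18 ± 0.16, edgeR adjusted p = 0.413). Rpl38, which is needed for translation of homeobox mRNAs in the embryo, rose by 1.37 ± 0.34 (67.3 to 106 CPM against 113 to 449 CPM, edgeR adjusted p = 0.0193).

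In the 40S subunit the steepest members were Rps12 (3.10 ± 0.58), Rps24 (2.99 ± 0.58), Rps14 (2.95 ± 0.50) and Rps27l (2.89 ± 0.58), at edgeR adjusted p values of 0.011, 0.0115, 0.00954 and 0.0124. Rps14, a protein of the platform and the gene lost in the 5q- syndrome, stood at 222, 301 and 319 CPM in FPC-GFP and at 467, 1882 and 4213 CPM in FPC-LIPA. Rps19, the gene most often mutated in Diamond-Blackfan anaemia, stood at 132, 195 and 223 CPM and at 238, 820 and 1758 CPM (2.33 ± 0.49, edgeR adjusted p = 0.0136). All FPC-LIPA livers lay above all FPC-GFP livers for both of these genes.

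Proteins of the mRNA path spread over a wide range. Rps3, at the mRNA entry, had a log2 fold change of 2.34 ± 0.47 (254 to 288 CPM against 367 to 2834 CPM, edgeR adjusted p = 0.0126), and Rps23, in the decoding centre, one of 2.01 ± 0.44 (188 to 271 CPM against 297 to 1872 CPM, 0.0141). Rps2, also at the entry, rose by 1.34 ± 0.28 (242 to 294 CPM against 361 to 1041 CPM, edgeR adjusted p = 0.0139). None of these 3 genes had overlapping groups. Rps26, at the mRNA exit, was at 98.9 to 158 CPM and 146 to 273 CPM and did not pass (0.56 ± 0.21, edgeR adjusted p = 0.0654).

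Rps6, the substrate of S6 kinase downstream of mTORC1, was at 237, 263.6 and 278 CPM in FPC-GFP and at 292, 885 and 1685 CPM in FPC-LIPA (1.88 ± 0.41, edgeR adjusted p = 0.0145). Every FPC-LIPA liver was higher than every FPC-GFP liver for Rps6. Rpsa, also known as a laminin receptor, Rps27a, made as a fusion with ubiquitin, and Rps4x, the X-linked form of Rps4, passed the test at less than a fold of 2, with log2 fold changes of 0.98 ± 0.24, 0.96 ± 0.26 and 0.86 ± 0.25 (edgeR adjusted p = 0.0195, 0.0239 and 0.0308). The groups overlapped for these 3 genes.

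Single FPC-LIPA libraries reached different heights. Mouse 36 had all 81 members above the highest FPC-GFP liver, mouse 39 had 79, mouse 37 had 75, mouse 31 had 71, mouse 34 had 61 and mouse 33 had 45. Set against the highest CON-GFP liver, the numbers were 79, 74 and 71 for mice 36, 39 and 37 and 12, 6 and 3 for mice 31, 33 and 34. Mouse 37 had 3 members below every FPC-GFP liver, namely Rplp0 (281 CPM), Rpl8 (226 CPM) and Rps10 (0.476 CPM), and mouse 33 had 1, Rps7 (170 CPM against 172 CPM in the lowest FPC-GFP liver). Rps10 and Rps7 are named after their values were seen. The share of all genes above or below the same bounds in single libraries was not counted. These numbers of members cannot be set against it. Mouse 37 was also the highest library for Rpl39, at 2918 CPM, where mice 36 and 39 held 981 and 1061 CPM.

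**Figure D4:**
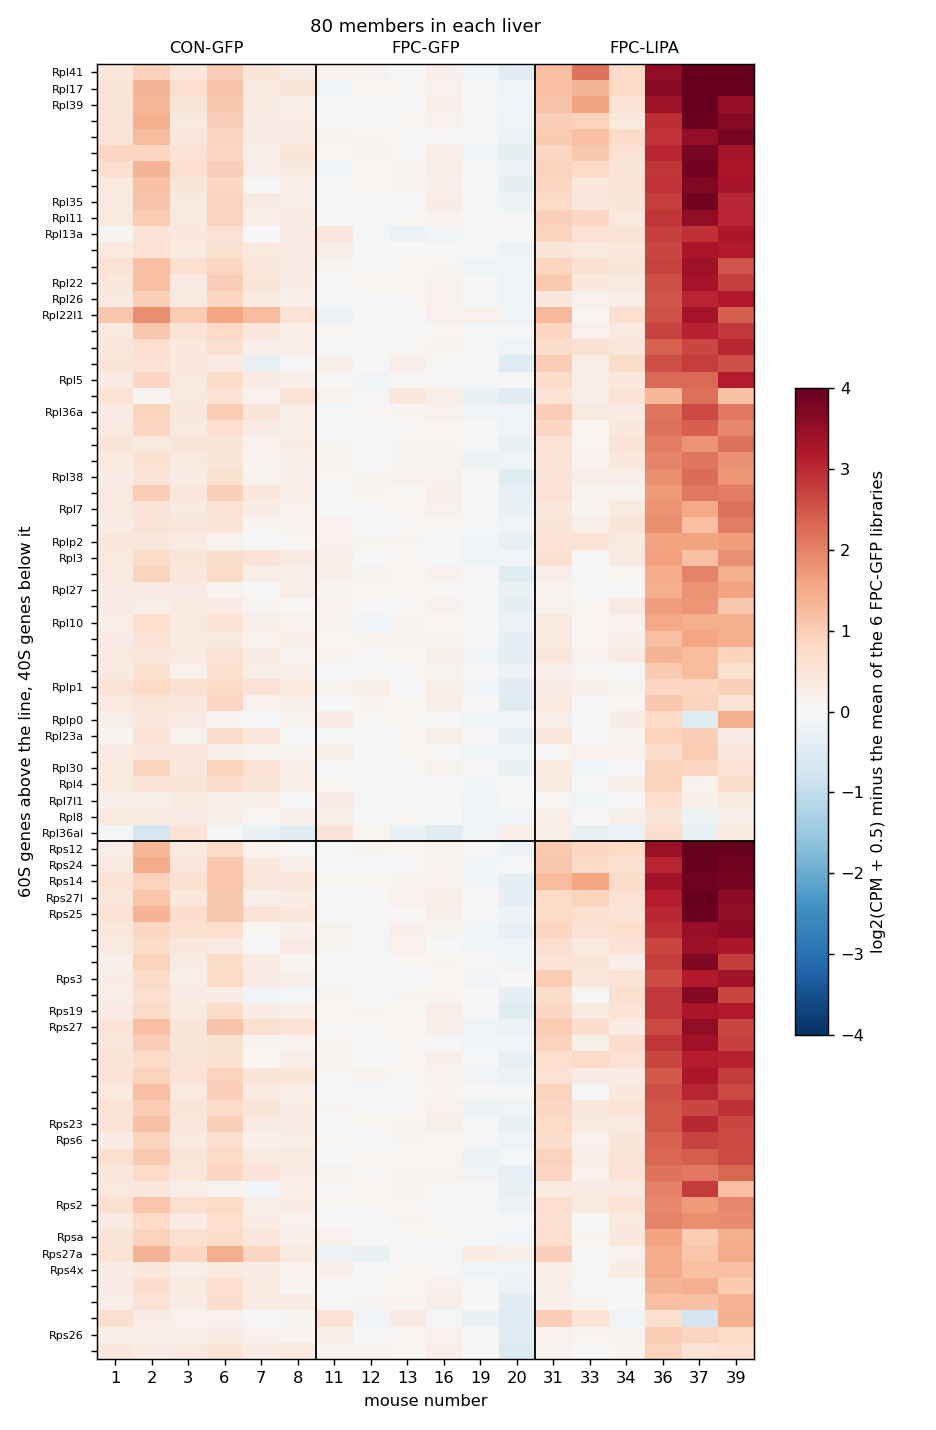
Level of 80 of the 81 members (rows, 60S above the line and 40S below, each ordered by fold change, with names for the genes chosen by rule) in each liver (columns), as log2(CPM + 0.5) minus the mean of the 6 FPC-GFP libraries, with colours held at their end beyond 4 in either direction. FPC-LIPA mice 36, 37 and 39 are red in nearly all rows, mice 31, 33 and 34 are paler, and CON-GFP mice 2 and 6 are the reddest of their group.

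On the FPC diet alone the members were lower. In FPC-GFP against CON-GFP, 80 of 81 members had a fitted log2 fold change under 0, compared with 48.8% of the 14307 genes tested, and the exception was Rpl36al. At an edgeR adjusted p under 0.05, 64 members fell (36 of 49 in the 60S and 28 of 32 in the 40S subunit) and none rose, where 10.9% of all genes fell and 12.9% rose. In 45 members every FPC-GFP liver lay below every CON-GFP liver, compared with 4.41% of all genes. The falls were mostly small and alike in both subunits, with a median log2 fold change of -0.49 over the 60S genes, -0.50 over the 40S genes and 0.01 over all genes. Single members ranged from -1.30 for Rpl22l1 to 0.18 for Rpl36al. Only Rpl22l1 passed the fold threshold of 2, which 2.44% of all genes did in that direction.

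The count of 64 varied with the fit. It was 28 when counts were scaled by library size alone, a scaling under which the median of all genes stood at 0.21, 42 when the length trend was removed, and 34 among libraries numbered 55 to 68. When all 18 libraries shared 1 estimate of the spread it was 4, namely Rpl22l1, Rpl30, Rplp1 and Rps27a. How many of all genes passed as lower in these fits was not counted, only those DE and lower. The genes DE and lower numbered 349 of 14307 in the main fit, 225 with library size alone and 338 with the length trend removed. They numbered 256 of 14640 among libraries numbered 55 to 68 and 249 of 14963 in the shared fit. Within CON-GFP, mouse 2 and mouse 6 held the highest member shares, 2.38 and 2.54%, and mouse 2 also had the highest mitochondrial share, 11.7%.

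Rpl22l1, the paralog of Rpl22 that replaces it in some ribosomes, stood at 32.6, 50.2 and 80.6 CPM in the lowest, median and highest CON-GFP liver and at 18.8, 22.5 and 24.9 CPM in FPC-GFP. The groups did not overlap, and the log2 fold change was -1.30 ± 0.18 (edgeR adjusted p = 0.000384). Rps27a was next, at 187, 258 and 398 CPM against 121, 144 and 177 CPM, with a log2 fold change of -0.95 ± 0.18 (edgeR adjusted p = 0.00257). Its groups did not overlap either. Rps25 followed at 251, 293 and 486 CPM against 163, 192 and 219 CPM, again without overlap (-0.81 ± 0.16, edgeR adjusted p = 0.00279). Near the other end, Rpl27 did not pass (-0.23 ± 0.10, edgeR adjusted p = 0.111).

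Among the genes with the highest LIPA fold changes, Rpl41, at 529, 589 and 839 CPM in CON-GFP livers, stood at 321, 452 and 496 CPM in FPC-GFP livers (-0.62 ± 0.15, edgeR adjusted p = 0.00911), and Rpl17, at 306, 343 and 599 CPM in the first, stood at 207, 238 and 262 CPM (-0.81 ± 0.17, edgeR adjusted p = 0.00417). Rpl39, Rps24 and Rps12 fell by log2 fold changes of -0.72 ± 0.18, -0.77 ± 0.19 and -0.57 ± 0.19 (edgeR adjusted p = 0.0098, 0.0117 and 0.0428). Of these 5 genes, Rpl17, Rpl39 and Rps24 lay below the lower quartile of all members on the diet (-0.63). With LIPA, Rpl3 was DE but below the median of all members (1.09 against 1.81), and Rpl4 and Rplp1 did not pass. On the diet Rpl3, Rpl4 and Rplp1 fell by log2 fold changes of -0.55 ± 0.11, -0.49 ± 0.10 and -0.61 ± 0.13 (edgeR adjusted p = 0.00289, 0.00378 and 0.00477), with no overlap of livers. Rplp0, Rplp2, Rpl8, Rpl23a, Rpl38, Rpl13a and Rps26 did not pass in the diet comparison (log2 fold changes from -0.35 to -0.22, edgeR adjusted p from 0.0557 to 0.193).

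The comparisons share the FPC-GFP libraries, so they are not independent of each other and their calls are only set side by side. In all, 57 members passed the test as lower on the diet and as higher with LIPA, 7 passed on the diet alone, 9 with LIPA alone and 8 in neither. Of all genes tested, 10.9% passed as lower on the diet and 14.4% as higher with LIPA. The share of all genes that passed both was not counted, so the 57 cannot be set against it. The 8 were Rpl8, Rpl23a, Rpl28, Rpl36al, Rpl7l1, Rplp0, Rps10 and Rps26. Set directly against CON-GFP, with no FPC-GFP library involved, FPC-LIPA livers had 74 members above 0 (52.4% of all genes), 47 higher at an edgeR adjusted p under 0.05 (14.7% of all genes) and 42 DE and higher (11.8% of all genes), 21 in each subunit. No member had all FPC-LIPA livers above all CON-GFP livers, although 6.26% of all genes did. Rpl41 led again, with a log2 fold change of 2.76 ± 0.56 (edgeR adjusted p = 0.0034), followed by Rpl17 (2.56 ± 0.60) and Rpl39 (2.54 ± 0.61), and near the low end stood Rpl30 (-0.17 ± 0.21) and Rpl8 (-0.11 ± 0.16), neither of which passed. With the length trend removed, 3 members passed as lower in FPC-LIPA than in CON-GFP, namely Rpl30 (-0.64 ± 0.16, edgeR adjusted p = 0.0125), Rplp1 (-0.58 ± 0.15, 0.0138) and Rps29 (-0.56 ± 0.18, 0.0413, named after its values were seen), and the same 3 passed when the trend was fitted without ribosomal protein genes. The count of 42 fell to 23 without FPC-LIPA mouse 37, to 26 or 27 without mouse 39 or 36 and to 26 without any single one of CON-GFP mice 1, 3, 7 and 8. Over all genes, 1396 of 14683 were DE and higher without mouse 37, 1449 of 14651 without mouse 39 and 1492 of 14508 without mouse 36. Without CON-GFP mouse 1, 3, 7 or 8 the numbers were 1338 of 14751, 1391 of 14576, 1421 of 14545 and 1407 of 14572. The count of 42 members fell to 1, Rpl41, among libraries numbered 55 to 68. In that setting 822 of 14914 genes tested were DE and higher, against 1707 of 14433 in the main fit.

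The paralog pairs were read separately. Rpl22 and Rpl22l1 coding sequences are 67.5% identical, and the ratio of Rpl22 to Rpl22l1 counts was 2.96 to 4.36 in CON-GFP, 4.43 to 5.72 in FPC-GFP and 4.29 to 6.48 in FPC-LIPA. The diet groups did not overlap, and the groups on the FPC diet did. Both genes rose with LIPA, Rpl22 by a log2 fold change of 2.19 ± 0.45 (edgeR adjusted p = 0.0133) and Rpl22l1 by 2.15 ± 0.44 (0.0127).

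Rps27 and Rps27l each have 84 codons and share 76.1% of their coding bases. The first 60 coding bases of each follow, to show how a read can be assigned to the right gene. Capitals mark the 18 positions at which they differ.
Rps27: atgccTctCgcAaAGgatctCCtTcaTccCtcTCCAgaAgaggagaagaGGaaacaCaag
Rps27l: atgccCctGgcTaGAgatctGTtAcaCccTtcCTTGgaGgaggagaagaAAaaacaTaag
The longest run of bases that both mRNAs share is 11. The ratio of Rps27 to Rps27l counts was 0.683 to 0.867 in CON-GFP, 0.569 to 0.716 in FPC-GFP and 0.354 to 0.764 in FPC-LIPA. Rps27l, a p53 target, thus had more counts than its parent in every library, but its mRNA is longer (499 against 345 bases). Per kilobase of mRNA, Rps27 stood at 592, 347 and 1689 CPM in CON-GFP, FPC-GFP and FPC-LIPA, and Rps27l at 567, 368 and 2719 CPM. With LIPA, Rps27 rose by 2.29 ± 0.47 (edgeR adjusted p = 0.0127) and Rps27l by 2.89 ± 0.58 (0.0124).

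Rpl7 and Rpl7l1, which share 54.5% of aligned coding bases, parted. Rpl7 was at 249 to 336 CPM in FPC-GFP and 321 to 1371 CPM in FPC-LIPA (1.29 ± 0.33, edgeR adjusted p = 0.0204), while Rpl7l1, which also takes part in nucleolar assembly, was at 55.6 to 78.1 CPM and 56.6 to 98.7 CPM (0.23 ± 0.17, edgeR adjusted p = 0.322). The ratio of Rpl7 to Rpl7l1 was 3.79 to 5.60 in FPC-GFP and 5.67 to 17.2 in FPC-LIPA, with no overlap. Rpl36a and its paralog Rpl36al are 87.9% identical, and Rpl36a rose by 1.70 ± 0.36 (edgeR adjusted p = 0.0141). Rpl36al was counted at 0.512 to 1.53 CPM in FPC-GFP and 0.635 to 1.80 CPM in FPC-LIPA, and did not pass in any comparison.

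Levels per length were uneven among the members. As CPM per kilobase of mRNA, the median member stood at 339 in CON-GFP, 234 in FPC-GFP and 728 in FPC-LIPA, with the 40S genes (397, 275 and 917) above the 60S genes (294, 215 and 617). The highest was Rpl41 in each group, at 1505, 987 and 10559 CPM per kilobase. At the other end Rpl24 was counted at 0.850, 0.505 and 1.98 CPM per kilobase, and in FPC-GFP Rpl36al (1.79), Rps10 (2.42) and Rpl13a (10.5) followed. Rpl24 and Rps10 are named after their values were seen. How reads that fit several genes or copies were treated is not given in the sources used here, so these low levels are uncertain. Rpl13a rose by more than the upper quartile of the 60S genes (2.197), from 9.08, 10.5 and 14.9 CPM in FPC-GFP to 15.9, 48.1 and 107 CPM in FPC-LIPA (2.29 ± 0.46, edgeR adjusted p = 0.0124).

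The make-up of the ribosomal protein pool shifted with the unequal changes. Rpl4 took the most counts of any member in CON-GFP (3.38% ± 0.32 of member counts, SD, n = 6) and in FPC-GFP (3.41% ± 0.22). In FPC-LIPA Rpl41 came first with 7.07% ± 2.83 (3.58 to 10.6%), up from 2.80% ± 0.23 in FPC-GFP (2.44 to 3.01%), and Rpl17 (3.55% ± 1.41) and Rps14 (3.54% ± 0.78) came next. The 10 most abundant members held 25.04% of member counts in CON-GFP, 24.9% in FPC-GFP and 29.5% in FPC-LIPA.

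Short mRNAs in general were higher in the FPC-LIPA libraries. Among genes that are no members, those with an mRNA under 500 bases had a median log2 fold change of 0.96 in FPC-LIPA against FPC-GFP (39.1% of 509 were DE and higher), and the medians were 0.62, 0.14, -0.06 and -0.17 in the classes from 500, 1000, 2000 and 4000 bases upward. Members of the first 3 classes had medians of 1.86 (18 genes), 1.88 (45 genes) and 1.26 (16 genes), above the other genes of like length. On the diet the other genes under 500 bases had a median of -0.31 and the members of that class one of -0.61. The share of counts on other genes under 500 bases was 1.76 to 2.66% in FPC-GFP and 2.51 to 5.66% in FPC-LIPA, with the highest values in mice 36, 37 and 39. The part of this length trend in the result was measured only by removing it, which left 38 of 81 members DE and higher (20 in the 60S and 18 in the 40S subunit), 71 above 0 and medians of 0.87 and 1.13. Over all 14620 genes tested, the number DE and higher went from 1508 to 1083 with that removal.

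**Figure D5:**
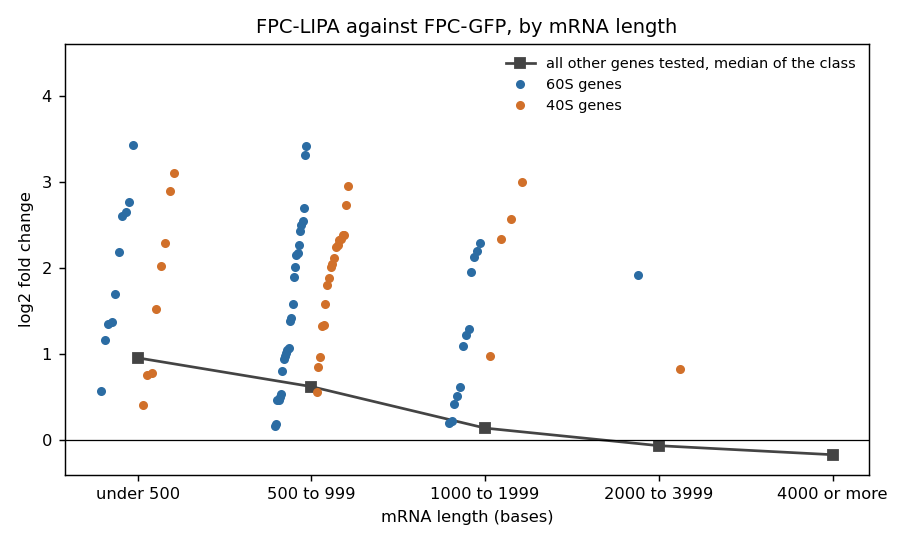
Log2 fold change in FPC-LIPA against FPC-GFP (y axis) by class of mRNA length (x axis, bases). Each point is a member, coloured by subunit and spread sideways in order of its value, and squares give the median of all other genes tested in the class. Most members lie above the squares, which run from 0.96 in the shortest to -0.17 in the longest class.

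Within the members, length and composition followed the changes only weakly. Across the 81 genes, which share libraries and are no independent replicates, the LIPA log2 fold change had a Pearson r of -0.28 (Spearman rho -0.22) with coding length, -0.18 (-0.19) with mRNA length and -0.12 (-0.10) with GC percent. On the diet r was 0.16 (rho 0.22) with coding length and 0.30 (0.24) with GC percent. Small nucleolar RNA genes lie inside many members, but their number had an r of -0.04 with the LIPA change and 0.04 with the diet change.

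Leukocyte markers moved alongside the LIPA comparison, 9 of 16 passing as higher (median log2 fold change 1.22), and no hepatocyte marker of 8 passed as higher and 1 as lower (median -0.24). Of all genes tested, 14.4% passed as higher. Mouse 37 had the highest leukocyte sum (1206 CPM) and the highest sum of 6 stellate markers (1066 CPM, against 292 to 477 CPM in the other FPC-LIPA livers). In CON-GFP against FPC-GFP the leukocyte sum was lower where the members were higher. Within FPC-LIPA the leukocyte sum was 618, 787 and 768 CPM in mice 31, 33 and 34. It was 845, 1206 and 968 CPM in mice 36, 37 and 39. The member shares of these mice were 2.95, 2.42 and 2.16% and 6.48, 8.09 and 8.15% in the same order. The part of these cells in the result was not tested.

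Copies of ribosomal protein genes that are annotated as pseudogenes went the same way. Of 319 such rows, 71 passed the filter in FPC-LIPA against FPC-GFP, all 71 had a log2 fold change above 0 (median 2.03) and 51 were DE and higher. Over all genes tested 10.3% were DE and higher. The filter keeps a row that has enough counts in as many libraries as a group holds. A low row can thus enter through the FPC-LIPA livers alone, which favours values above 0 among the 71. On the diet 67 were tested, 19 fell (10.9% of all genes did) and the median was -0.51. They took 0.0308 to 0.0384% of counts in FPC-GFP and 0.0513 to 0.209% in FPC-LIPA. Adding the counts of the 317 rows named for a member to that member gave 59 DE members in place of 58. Reads of a parent gene and of its near-identical copies cannot be told apart in such rows.

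Transcription start regions were read because the members moved together. RefSeq start windows on GRCm38.p6 were at hand for 61 of the 81 members. A run of 8 or more pyrimidines within the 30 bases around the start was present in 27 of 61 members (44.3%) and in 13.9% of 27025 genes. The windows of 5 members follow, with their longest pyrimidine run in capitals, 4 that hold such a run and Rpl41, whose annotated window holds none. The 16th base of each is the annotated first base of the transcript. They lie at chr2:39005117-39005146 (Rpl35, minus strand), chr4:86857353-86857382 (Rps6, minus), chr11:114668565-114668594 (Rpl38, plus), chr7:141447636-141447665 (Rplp2, plus) and chr10:128549154-128549183 (Rpl41, minus).
Rpl35: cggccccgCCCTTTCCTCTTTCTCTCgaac
Rps6: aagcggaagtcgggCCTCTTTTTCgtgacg
Rpl38: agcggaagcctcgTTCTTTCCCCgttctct
Rplp2: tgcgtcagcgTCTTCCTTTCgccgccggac
Rpl41: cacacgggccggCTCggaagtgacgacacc
The 27 members with a run of 8 or more had LIPA log2 fold changes from 0.42 to 3.32 (median 1.96, 23 passed), and the 34 without one had values from 0.16 to 3.42 (median 1.96, 30 passed). Of the genes shown, Rpl35, Rps6, Rpl38 and Rplp2 had 2.50, 1.88, 1.37 and 1.17, and Rpl41 had 3.42. In the 300 bases from 250 before to 50 after the start, the letters CCGGAAG (or CTTCCGG on the other strand), a core bound by ETS factors, were found in 25 of 61 members (41.0%) and in 9.93% of all genes. CTCTTTC (or GAAAGAG) was found in 18 (29.5%, against 9.28%) and AAGATGG (or CCATCTT), the core of a YY1 element, in 10 (16.4%, against 7.28%). The median LIPA log2 fold change was 2.01 with and 1.94 without the first, 1.96 and 1.96 for the second, and 2.24 and 1.90 for the third. A match describes letters and is no measure of binding.

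Genes of the same pathway did not all move alike. Of 19 other genes with TOP mRNAs or ribosomal fusion products, 11 rose in FPC-LIPA against FPC-GFP (10 of them DE, median log2 fold change 1.16) and 11 fell on the diet (median -0.34). Of all genes tested, 14.4% rose and 10.3% were DE and higher with LIPA, and 10.9% fell on the diet. Fau, the fusion gene of 40S protein S30, averaged 307, 203 and 863 CPM in CON-GFP, FPC-GFP and FPC-LIPA, with log2 fold changes of -0.61 ± 0.15 (edgeR adjusted p = 0.0105) and 2.09 ± 0.45 (0.0141). Eef1b2, an exchange factor for elongation factor 1, had -0.50 ± 0.13 (edgeR adjusted p = 0.0149) and 2.01 ± 0.44 (0.0141), and Eef1a1, that factor itself, had -0.44 ± 0.11 (0.0137) and 1.29 ± 0.33 (0.0204). Rack1, a scaffold on the 40S head, had -0.34 ± 0.11 (edgeR adjusted p = 0.0298) and 1.16 ± 0.31 (0.0225). Eef2, the translocase, whose mRNA also has a TOP tract, did not pass in either (-0.18 ± 0.13 and -0.81 ± 0.28, edgeR adjusted p = 0.316 and 0.0527). Pabpc1, the poly(A)-binding protein, likewise did not pass, at -0.0011 ± 0.23 with LIPA (edgeR adjusted p = 0.998).

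Ribosome assembly genes showed no such rise. Of 25 genes for RNA polymerase I, nucleolar proteins and assembly factors, none rose with LIPA, 3 fell and 20 had a log2 fold change under 0 (median -0.42). The 3 were Ncl, nucleolin (151 CPM in FPC-GFP and 87.3 CPM in FPC-LIPA on average, -0.79 ± 0.20, edgeR adjusted p = 0.0195), Nolc1, a nucleolar chaperone (-0.80 ± 0.24, 0.0331), and Nop2, an rRNA methyltransferase (-1.13 ± 0.32, 0.0275). On the diet only Nop2 passed, as higher (0.69 ± 0.21, edgeR adjusted p = 0.0302), and the median was 0.17. Of 10 genes of the mTORC1 pathway and its regulators, Rptor, a subunit of mTORC1, Larp1 and Mtor fell with LIPA (-0.80 ± 0.17, -0.92 ± 0.29 and -0.41 ± 0.13, edgeR adjusted p = 0.0141, 0.0394 and 0.0434), while Mtor and Tsc2 rose on the diet (0.57 ± 0.12 and 0.44 ± 0.15, edgeR adjusted p = 0.00528 and 0.0428). Of all genes tested, 14.4% rose with LIPA and 12.9% rose on the diet. The share of all genes that fell with LIPA was not counted, so the falls in both lists cannot be set against it. The mRNAs of these lists are longer, with a median of 2441 bases for the assembly genes and 5495 for the mTORC1 list against 681 for the members. With the length trend removed, still none of the 25 assembly genes rose and 3 fell (median -0.36), and 1 of the 10 mTORC1 genes fell (median -0.38), while 11 of the 19 TOP and fusion genes rose (7 DE, median 0.88). In that fit 1083 of the 14620 genes tested were DE and higher.

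Mitochondrial ribosomal proteins, which build a separate ribosome for the mitochondrial genome, moved less. Of 77 tested, 33 rose and 2 fell with LIPA (22 DE and higher, median log2 fold change 0.60), and 16 fell and none rose on the diet (median -0.15). With the length trend removed, 18 rose and 6 fell with LIPA (median 0.31). The cytosolic members had medians of 1.81 with LIPA and -0.49 on the diet before any trend was removed. In the main fits 14.4% of all genes rose and 10.3% were DE and higher with LIPA. On the diet 10.9% of all genes fell and 12.9% rose.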

How the data were processed

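Paired-end liver RNA-seq libraries were trimmed by the authors with Trimmomatic (0.33), aligned to mm10 with HISAT2 (2.1.0) and counted per gene with Subread, per the methods and the submitters' processing notes, which also name FastQC and edgeR. The deposited values were raw counts per gene and library, and the authors' table was used as it stood. The labels name an unstranded and a stranded kit without saying which served which library, and the treatment of strand and of reads fitting several places is not given in the sources used here. A further 5 columns of the table matched no labelled sample and were not used.

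Counts were analysed in R 4.3.3 with edgeR 4.0.16 (limma 3.58.1) by filterByExpr, TMM factors, glmQLFit and glmQLFTest on the 12 libraries of each comparison, over all genes left, with Benjamini-Hochberg adjustment. The diet groups and the virus groups gave 3 comparisons. DE means a fold change of at least 2 with an adjusted p under 0.05, and SE is the log2 fold change divided by the root of F. CPM used TMM factors over all 18 libraries. mRNA length is that of the shortest protein-coding transcript carrying the main coding sequence in GENCODE M21 (GRCm38), found for 55141 of 55487 genes. Libraries are separate mice, and pairs within a group differed by far more than counting noise (chi-square per degree of freedom 15.4 to 591 over 45 pairs).

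The rule for the members reads symbols alone, but it and the gene lists were chosen with earlier results of these data known, so counts over them are descriptions, and no test was run over a list. The genes named are the 5 largest and 3 smallest changes of each comparison, members picked for their role or as paralog pairs, up to 5 members moving against the rest, and members removed by the filter, of which there were none (40 genes, and 1 more that is not reported here). Others are said to be named after their values were seen. Lists were leukocyte, hepatocyte, stellate, endothelial and cholangiocyte markers, TOP and fusion genes, assembly genes, mTORC1 genes, mitochondrial ribosomal proteins and pseudogenes.

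Alternatives were other scalings (DESeq2 size factors, library size alone, TMM without ribosomal protein genes), the DESeq2 1.42.0 Wald test, no filter, all 18 libraries in 1 fit, libraries with sample sheet numbers 55 to 68, removal of each library's lowess trend (span 0.3) on length, pseudogene counts added, and each library left out. The trend fitted without ribosomal protein genes, and the lists under the trend, were added after the data were seen. In simulated FPC-LIPA against FPC-GFP data on 14480 genes the test found 61 of 100 genes changed by a fold of 2. It found 100 of 100 changed by a fold of 4, and called 9 unchanged genes. The measured libraries were uneven, with member shares of 5.04% ± 2.85 (SD, n = 6) in FPC-LIPA and 1.66% ± 0.12 in FPC-GFP. Whether the test finds as many changes at that spread between FPC-LIPA libraries was not tested.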

Additional observations from a re-analysis of the deposited data

Results flagged for a closer look

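Of 141 groups of 6 libraries examined, 7 had a library farther from the rest than Dixon's 95% value allows, a rate near the 1 in 20 that chance gives. They are given as values only. In FPC-GFP, mouse 11 was the highest for Rpl13a (14.9 CPM, next 10.7 CPM) and for Rpl7l1 (78.1 CPM, next 60.8 CPM), and mouse 20 was the lowest for Rpl38 (67.3 CPM, next 93.9 CPM), for the share of counts on 60S genes (0.832%, next 0.963%) and for the share on ribosomal protein pseudogenes (0.0308%, next 0.0358%). Mouse 19 of that group had the highest sum of leukocyte markers (569 CPM, next 372 CPM). In FPC-LIPA, mouse 37 was the highest for Rpl39 (2918 CPM, next 1061 CPM).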

How the results depend on the processing

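No paired analysis was possible because the mouse numbers in the labels are not shared between groups. Of the counts of members and subunit medians, those not named here kept their direction and stayed within 1.5 times the value given (for medians, within 1 SD between libraries) under every alternative run. Library size alone moved the median of all genes from 0.01 to 0.21 on the diet and from 0.04 to -0.09 with LIPA, and took the members that fell on the diet from 64 to 28 and the diet medians to -0.29 in both subunits. In libraries numbered 55 to 68 the LIPA counts of 66 and 58 both became 3, the diet count 34 and the FPC-LIPA against CON-GFP count 1 in place of 42, with 2 or 3 libraries fewer in each comparison. Over all genes, 93 of 14736 were then DE and higher in FPC-LIPA against FPC-GFP and 822 of 14914 in FPC-LIPA against CON-GFP. With all 18 libraries in 1 fit the diet count was 4. The share of all genes that passed as lower on the diet was not counted in the alternative fits. Removing the length trend gave 38 DE members with LIPA (40S median 1.13), 42 on the diet (60S median -0.30), and fitting that trend without ribosomal protein genes gave 39 and a 60S diet median of -0.31. Over all 14620 genes tested with LIPA, 1083 and 1127 were DE and higher in these fits, against 1508 in the main fit.

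With 1 library left out, the LIPA counts ranged from 51 to 62 (DE) and 52 to 73 (adjusted p), the diet counts from 49 to 68 (adjusted p) and 1 to 2 (DE, Rps27a joining Rpl22l1 without CON-GFP mouse 1 or 8 or FPC-GFP mouse 19), and the FPC-LIPA against CON-GFP count from 23 (without FPC-LIPA mouse 37) to 48. Over all genes, those DE and higher with LIPA ranged from 807 of 14746 (without FPC-LIPA mouse 36) to 2052 of 14696 (without mouse 33). In FPC-LIPA against CON-GFP they ranged from 1338 of 14751 to 1986 of 14458. Genes DE and lower on the diet ranged from 284 of 14482 to 400 of 14474. Genes passing at an adjusted p alone were not counted. The LIPA medians ranged from 1.23 to 1.54 (60S) and 1.70 to 2.22 (40S), and the diet medians from -0.53 to -0.41 and -0.57 to -0.40.

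With the length trend removed, Rpl30, Rplp1 and Rps29 passed as lower in FPC-LIPA than in CON-GFP, as given above. Among 40 named members in 3 comparisons, 41 values changed sign, none of them past the test. Removal of the length trend, with the value for the trend fitted without ribosomal protein genes second, turned these log2 fold changes of FPC-LIPA against FPC-GFP: Rpl23a (-0.24, -0.18), Rpl30 (-0.30, -0.23), Rpl36al (-0.65, -0.59), Rpl8 (-0.27, -0.24), Rplp1 (-0.24, -0.18) and Rps26 (-0.12, -0.070). It turned Rpl23a (-0.33, -0.28), Rpl36al (-0.18, -0.13) and Rps26 (-0.13, -0.094) against CON-GFP, and on the diet Rplp2 (0.073, 0.047) and Rpl27 (0.015). In libraries numbered 55 to 68, Rpl36al on the diet was -0.030, and Rpl7l1 and Rpl8 against CON-GFP were 0.014 and 0.029. Against CON-GFP, Rpl7l1 was 0.057 under library size alone, 0.0022 under TMM without ribosomal protein genes and 0.030 in 1 fit of all libraries, and Rps27a was 0.0081 and 0.015 under the first and last of these. With 1 library left out, Rpl36al ranged from -0.014 to 0.46 on the diet and from -0.073 to 0.36 with LIPA, and against CON-GFP Rplp0 ranged from -0.026 to 0.40, Rpl7l1 from -0.11 to 0.040 and Rps27a from -0.16 to 0.098. The cause of these changes was not tested.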

Other observations

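Other cell types of the liver moved unevenly beside the ribosomal protein genes. In FPC-LIPA against FPC-GFP, 3 of 6 stellate markers rose (1 of them DE, median log2 fold change 0.52), and none of 4 endothelial and none of 4 cholangiocyte markers passed edgeR's test (medians 0.07 and -0.19). On the diet 3 of 6 stellate markers rose, all 3 DE (median 1.15), 1 of 4 endothelial markers rose (median 0.24) and no cholangiocyte marker passed (median 0.47). Leukocyte markers rose on the diet too, 5 of 15 tested (median 0.47), in the comparison in which the ribosomal protein genes fell. Of all genes tested, 12.9% rose on the diet and 14.4% rose with LIPA. Within FPC-LIPA, mice 36, 37 and 39 had both the highest leukocyte sums and the highest member shares. The part of any of these cell types in the results was not tested.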
